A study of Mus musculus with 12 samples.

Results

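Tunicamycin alone was compared with no treatment in mouse bone-marrow-derived macrophages, in 6 of the 12 RNA sequencing libraries of a series that asks, per its title, what stress of the endoplasmic reticulum (ER) does to inflammatory responses. Macrophages of this kind are grown from bone marrow, here wild type, in 7 days of culture with M-CSF, a growth factor, and 10% serum. The 3 control libraries came from untreated cells, and the 3 tunicamycin libraries from cells given 5 ug/ml of tunicamycin (Tm in the labels). The other 6 libraries, 3 with lipopolysaccharide (LPS, 1 ng/ml for 3 h) and 3 with tunicamycin for 3 h before LPS, serve below only to show the tunicamycin effect again and to test where it differed. How long cells with tunicamycin alone were exposed, what the controls received in its place, and the strain, age and sex of the mice are not given in the sources used here. Of the 24346 gene symbols in the table, 10311 had an FPKM (fragments mapped to a gene, scaled to transcript length and to the library's mapped fragments) of at least 1 in at least 3 of the 12 libraries and were tested.

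Tunicamycin blocks the enzyme that starts the sugar chain of N-linked glycoproteins, and proteins that need the chain then misfold in the ER. Cells answer with the unfolded protein response, which has a sensor kinase and nuclease (IRE1, gene Ern1) that splices Xbp1 mRNA, a kinase (PERK, gene Eif2ak3) that slows translation and favours the factor ATF4, and a membrane-bound factor (ATF6) that is released by cleavage. Their targets are ER chaperones, the machinery that degrades misfolded ER proteins, amino acid supply and, under lasting stress, the factor CHOP. In macrophages, which secrete and sample their surroundings, ER stress is known to interact with inflammatory signalling.

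The sequences through which ATF6, XBP1 and ATF4 are known to act on promoters were looked for in RefSeq promoter windows of GRCm38.p6 (250 bases before to 50 after each start, both strands), which 7953 of the tested genes had. The ER stress response element ERSE (CCAAT, any 9 bases, then CCACG, so that it begins with a CCAAT box) stood in 13 of these genes, or 0.163%, and in 39 of all 32851 windows, or 0.119%. The sites of the chaperone, disulfide isomerase and ER degradation genes among them are shown because these groups are described below; Canx did not pass and the others rose. Capitals mark the element, whose coordinates are given.
Hspa5, chr2:34772025-34772043, plus strand: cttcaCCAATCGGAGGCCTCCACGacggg
Hsp90b1, chr10:86705638-86705656, minus strand: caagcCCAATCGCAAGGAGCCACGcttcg
Hsp90b1, chr10:86705533-86705551, plus strand: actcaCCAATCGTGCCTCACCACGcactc
Dnajc3, chr14:118937827-118937845, plus strand: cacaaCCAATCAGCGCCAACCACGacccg
Pdia6, chr12:17266491-17266509, plus strand: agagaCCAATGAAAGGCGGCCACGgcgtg
Creld2, chr15:88819520-88819538, minus strand: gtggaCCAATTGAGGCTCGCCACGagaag
Derl3, chr10:75893242-75893260, minus strand: gctagCCAATGGGGAAGTCCCACGgtaga
Syvn1, chr19:6046532-6046550, plus strand: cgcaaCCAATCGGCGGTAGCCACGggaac
Calr, chr8:84847075-84847093, plus strand: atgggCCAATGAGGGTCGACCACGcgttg
Canx, chr11:50325800-50325818, minus strand: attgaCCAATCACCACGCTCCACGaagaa

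The amino acid response element CARE (TGATGCAA), known as a site of ATF4 with CHOP or C/EBP factors, stood in 59 of the 7953 genes, or 0.742%, and in 294 of all windows, or 0.895%. Sites are shown for chosen genes of the ATF4 and CHOP, ER degradation, tRNA synthetase and amino acid transporter lists, again with the element in capitals. All genes shown rose. Other members of the lists described below also hold the element and are not shown, and some of these did not pass.
Chac1, chr2:119351049-119351056, minus strand: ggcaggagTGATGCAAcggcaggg
Nupr1, chr7:126625573-126625580, plus strand: gccctgtcTGATGCAAtctggccc
Herpud1, chr8:94386317-94386324, minus strand: gtgcgggcTGATGCAAcccgccgt
Aars, chr8:111033730-111033737, minus strand: ggctcggcTGATGCAAtgctcaag
Atf3, chr1:191183436-191183443, plus strand: ggacttggTGATGCAAgtgcgaga
Slc7a11, chr3:50443672-50443679, minus strand: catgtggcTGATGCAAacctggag
Slc7a11, chr3:50443653-50443660, plus strand: ctgcatgaTGATGCAAattctcca
Jdp2, chr12:85599383-85599390, plus strand: gccggggcTGATGCAAcccgtccc

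The windows of Hspa5 and Herpud1, whose levels are described below, show where the sites lie. In the 250 bases before the Hspa5 start (chr2:34771840-34772089, plus strand), capitals mark the exact ERSE. In those before the Herpud1 start (chr8:94386179-94386428, plus strand), they mark a CARE read on the minus strand and then the related element ERSE-II (ATTGG, any base, then CCACG, in which ATTGG is the CCAAT box of the other strand).
Hspa5: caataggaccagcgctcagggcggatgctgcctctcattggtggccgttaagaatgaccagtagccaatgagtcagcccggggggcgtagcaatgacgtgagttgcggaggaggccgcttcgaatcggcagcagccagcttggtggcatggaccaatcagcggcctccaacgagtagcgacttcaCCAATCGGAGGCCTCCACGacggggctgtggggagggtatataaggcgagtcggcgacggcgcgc
Herpud1: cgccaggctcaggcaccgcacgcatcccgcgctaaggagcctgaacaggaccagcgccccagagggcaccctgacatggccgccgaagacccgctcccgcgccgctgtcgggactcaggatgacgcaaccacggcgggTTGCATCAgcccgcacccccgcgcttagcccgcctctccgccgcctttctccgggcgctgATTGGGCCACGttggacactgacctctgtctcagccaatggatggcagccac

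Read against all genes, 9 of the 13 ERSE genes rose with tunicamycin (69.2%) and 0 fell. Among all 7953 genes with a window, 17.7% were higher and 16.7% lower. The 9 include Derl3, which passed the filter only through libraries with tunicamycin and so had to differ. They also include Alg12, which has the same site as Creld2, so that this site is counted for both genes. The 4 that did not pass included Canx, the lectin chaperone calnexin, at 173 ± 9.91 and 196 ± 18.7 FPKM (log2 difference 0.17 ± 0.10), which passed as higher with quantile normalization (0.42, adjusted p = 0.00572). ERSE-II stood in 8 genes, of which 5 rose and 0 fell. CARE genes numbered 24 higher and 6 lower of 59 (40.7% and 10.2%), and genes with the UPRE (TGACGTGG) 24 higher and 11 lower of 84. The cyclic AMP element CRE (TGACGTCA), which no list here is built on, was in 308 genes with 52 higher and 51 lower. The bare CCAAT box (CCAAT) was in 3435 genes, of which 643 were higher and 586 lower. CARE was in 4 of the 12 synthetase genes with a window and in 4 of 17 ATF4 pathway genes, ERSE in 6 of 17 chaperone genes, and UPRE in 7 of 39 genes of ER export. A match of letters is a description of the window and not a measured binding site.

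Summed FPKM was 603467 to 638743 in the control libraries and 561108 to 563002 with tunicamycin, and 9576 to 9741 genes reached 1 FPKM. Read depth is unknown, because only FPKM were used. Libraries of a group correlated across genes with Pearson's r of 0.9753 to 0.9857, and control with tunicamycin libraries with 0.9273 to 0.9428. Control replicate 2 lay apart from the other controls on the second principal component of the 6 libraries (-27.38, against 15.9 and 14.41), which held 12% of the variance where the one that separates the groups held 67%. Without it, 1544 genes were higher and 1428 lower, in place of 1843 and 1714. Of 10 macrophage markers all were tested, and 1 rose, 4 fell and 5 did not pass (median log2 difference -0.40). Their summed level was 14552 to 19175 FPKM in controls and 18607 to 22165 FPKM with tunicamycin. Those that fell included Cd68, Cd14 and Fcgr1, described below, and the rise was lost without control replicate 1, control replicate 2, tunicamycin replicate 2 or tunicamycin replicate 3 and became 3 rises without control replicate 3. Csf1r, the M-CSF receptor, stood at 501 ± 10.4 and 545 ± 16.7 FPKM and Adgre1, the marker F4/80, at 226 ± 17.8 and 297 ± 41.7. The summed level of 12 neutrophil markers (11 in the table, 1 at 0 in all 6 libraries) was 105.1 to 145.3 FPKM in controls and 28.6 to 49.0 with tunicamycin, and 3 of the 6 tested fell. That of 11 stromal markers was 25.9 to 39.9 and 48.3 to 68.4 FPKM, and 5 of the 10 tested rose, or 3 without control replicate 2 or tunicamycin replicate 3. The largest of these was Dcn, decorin of fibroblasts, from 0.608 ± 0.471 to 10.4 ± 5.4 FPKM. The 9 dendritic cell markers summed to 97.3 to 139 FPKM in controls and 108 to 118 FPKM with tunicamycin, and none of the 3 tested passed. Markers of T, B, erythroid and mast cells summed to at most 3.12 FPKM a list in any of the 6 libraries. The part of other cells in the results was not tested, and in bulk RNA fewer cells of a type and less RNA per cell cannot be told apart. The labels do not say that replicates were separate animals or cultures, so p-values measure the spread between these libraries.

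Tunicamycin moved 34.5% of the genes tested (limma, Benjamini-Hochberg adjusted p under 0.05, called passed below): 1843 were higher, or 17.9%, and 1714 lower, or 16.6%. Most changes were small. By at least 2-fold 577 genes were higher (5.6%) and 466 lower (4.52%); of these 64 and 48 changed 4-fold to 8-fold and 18 and 9 by more. Fold changes and log2 differences were taken between values of log2(FPKM + 1), so those of low genes are understated, and errors of log2 differences are SE. Where a pair of levels is given as mean ± SD (n = 3), the controls come first, and gene coordinates are those of GENCODE M21 on GRCm38 (mm10). The median control level was 4.85 FPKM for genes that rose by at least 2-fold, 21.02 for those that fell and 10.25 for all, a contrast that the pseudocount and the filter in part fix. Of the genes named below, Derl3, Ffar2 and Klf4 reached 1 FPKM only in libraries with tunicamycin, with or without LPS, and Mir8112 only in the controls, so that these had to differ once they passed the filter. The groups did not overlap upward in 25.1% of genes and downward in 23%. The plot of change against control level shows the same picture, with stress genes at the top, chemokine and receptor genes at the bottom, and Hspa5 and Hspa8 as changes of opposite sign among the abundant genes.

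**Figure D1:**
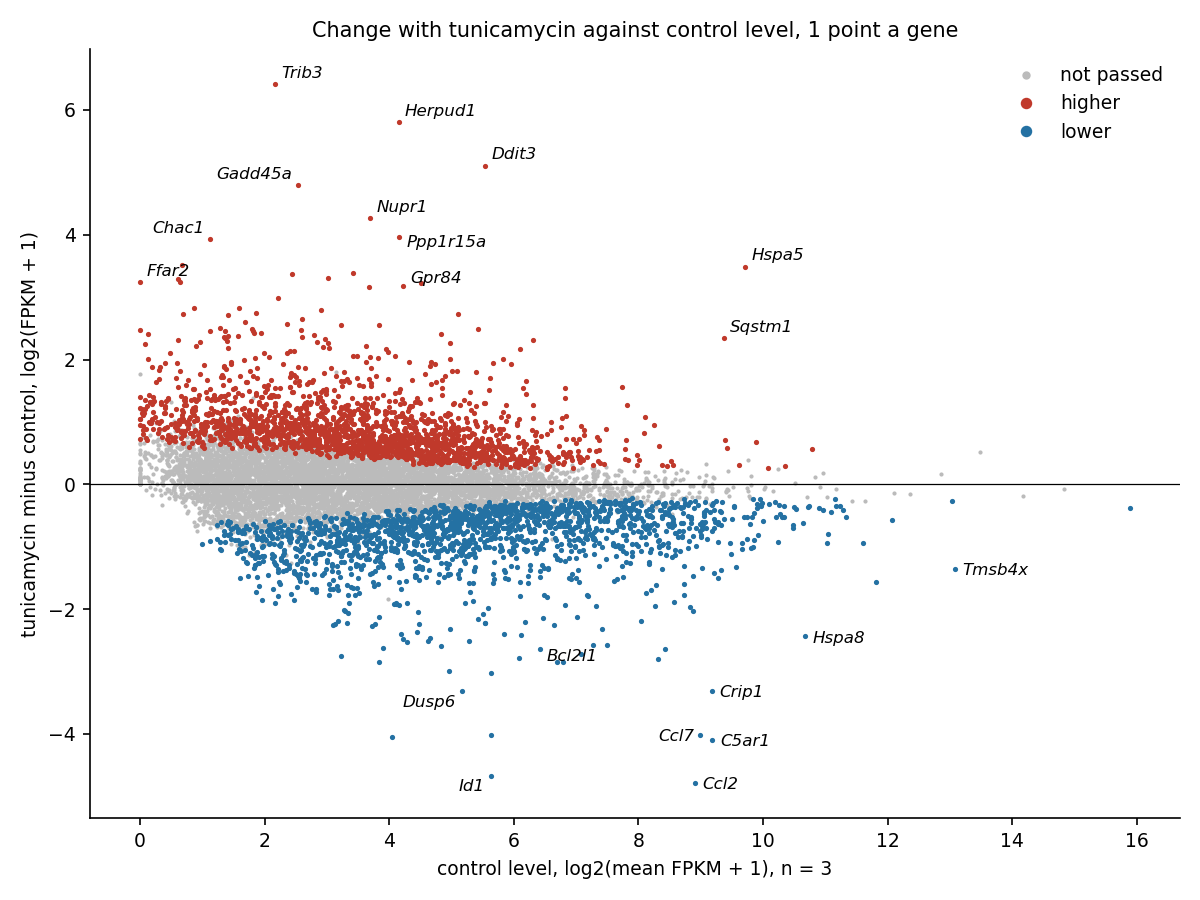
Change with tunicamycin (tunicamycin minus control, in log2(FPKM + 1)) against the control level (log2 of the mean FPKM + 1, n = 3), with 1 point for each of the 10311 genes. Red genes were higher and blue genes lower at an adjusted p under 0.05 and grey genes did not pass; Trib3 at 6.41 and Ccl2 at -4.79 are the extremes.

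The sensors of the unfolded protein response rose at the level of mRNA. Ern1, which encodes IRE1, was at 2.03, 0.956 and 1.3 FPKM in the controls and at 10.6, 17 and 10.7 FPKM with tunicamycin. That is 5.65-fold higher (log2 difference 2.50 ± 0.23, limma adjusted p = 5.38e-07), with no overlap between the groups. Eif2ak3, which encodes PERK, went from 3.3 ± 1.18 to 10.1 ± 0.689 FPKM (mean ± SD, n = 3, 2.65-fold), and Atf6 from 16.2 ± 1.22 to 33.6 ± 4.44 (2-fold). Xbp1, whose mRNA IRE1 splices, was 2.08-fold higher at 226 ± 8.76 FPKM, but gene-level FPKM do not separate its spliced form. Creb3l2, a membrane-bound factor related to ATF6, rose 3.9-fold, and Nfe2l1, a membrane-bound factor of proteasome genes, 4.79-fold to 150.2 ± 14.1 FPKM. Of the 14 tested genes of sensors, related membrane-bound factors and eIF2alpha kinases, 7 rose, 0 fell and 7 did not pass, with a median log2 difference of 0.42 beside 0.03 over all genes.

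The ATF4 and CHOP branch held the largest rise of all genes tested, that of Trib3. Ddit3, which encodes CHOP, stood at 42, 52.7 and 42 FPKM in the controls and at 1478, 1564 and 1760.3 FPKM with tunicamycin. It moved from rank 1629 to 1981 among all genes to rank 23 to 34, and rose 34.5-fold (log2 difference 5.11 ± 0.15, limma adjusted p = 3.34e-13). Its symbol has more than 1 entry in GENCODE M21, so no coordinates are given. Trib3, a pseudokinase that binds ATF4 and AKT (chromosome 2, 152337422 to 152344032, minus strand), was at 3.69, 2.66 and 4.13 FPKM without and at 368, 386 and 379 FPKM with tunicamycin, 85.2-fold higher (log2 difference 6.41 ± 0.15). In both genes every tunicamycin library was far above every control.

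Most of the rest of the branch rose with them. Atf4 itself went from 34.4, 33.5 and 32.5 to 247, 212 and 223 FPKM (6.62-fold, log2 difference 2.73 ± 0.12). Ppp1r15a, the phosphatase subunit GADD34 that reverses the block of translation (chromosome 7, 45522916 to 45526268, minus strand), went from 16.4, 18.2 and 15.7 to 262, 288 and 273 FPKM (15.5-fold), and Nupr1, a small stress-induced chromatin protein, from 9.79, 15.4 and 10.5 to 183, 292 and 269 FPKM (19.3-fold). Chac1, which degrades glutathione, was near the limit of the filter in controls at 1.19 ± 0.683 FPKM and reached 31.4 ± 4.17 FPKM. The factors Atf3 (1.91-fold, log2 difference 0.93 ± 0.11) and Cebpg (3.22-fold) and the stress gene Ndrg1 (4.57-fold) rose less. In all, 17 of 21 tested members of this list rose, 2 fell and 2 did not pass (median log2 difference 1.65). The 2 that fell were Nck2, an adaptor protein (log2 difference -0.66 ± 0.17), and Cdkn1a, the cell cycle inhibitor p21 (-0.38 ± 0.09), whose fall did not pass with quantile normalization (-0.12, adjusted p = 0.3545).

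The ER's own folding machinery rose around its most abundant chaperone. Hspa5, which encodes BiP (chromosome 2, 34771970 to 34777547, plus strand), was at 765, 912 and 845 FPKM in controls and at 7233, 10562 and 10986 FPKM with tunicamycin. That took it from 0.127% to 0.143% of summed FPKM, at rank 76 to 81, to 1.29% to 1.95% at rank 5 to 7. It was 11.2-fold higher (log2 difference 3.49 ± 0.14, limma adjusted p = 1.61e-11). BiP's partners followed at different sizes. Dnajb9, a co-chaperone that also restrains IRE1, rose 8.9-fold to 113 ± 16.2 FPKM, Manf 5.59-fold to 238 ± 32.5, Creld2 4.48-fold to 311 ± 76.3, and Sdf2l1, which is found in complex with BiP, 2.94-fold to 637 ± 127. Hyou1, the nucleotide exchange factor of BiP, rose 3.25-fold, Dnajc3 3.05-fold, and Hsp90b1, the chaperone GRP94, 1.94-fold from a high level (315, 289 and 310.3 FPKM in controls and 443, 657 and 708 FPKM with tunicamycin). Of 22 tested members 11 rose, 0 fell and 11 did not pass. The smallest rise was that of Calr, the lectin chaperone calreticulin (log2 difference 0.37 ± 0.11, from 368 ± 29.2 to 479 ± 50.5 FPKM). Its call was lost without control replicate 1 (adjusted p = 0.0618), control replicate 3 (0.0619), tunicamycin replicate 2 (0.0557) or tunicamycin replicate 3 (0.0871).

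The rise was uneven over the 3 tunicamycin libraries in a way that the chaperones shared. Tunicamycin replicate 1 had the lowest of the 3 levels in 11 of the 11 chaperone genes that rose, in 12 of 15 synthetase genes and in 14 of 21 genes of ER export. Over all 1843 genes that rose it was the lowest in 45.9%. For Hspa5 it held 7233 FPKM, against 10562 and 10986 FPKM in the other libraries, and the plot of stress genes by library shows the same order for Pdia4, Creld2 and Sdf2l1. Leaving it out gave 1585 genes higher and 1513 lower.

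**Figure D2:**
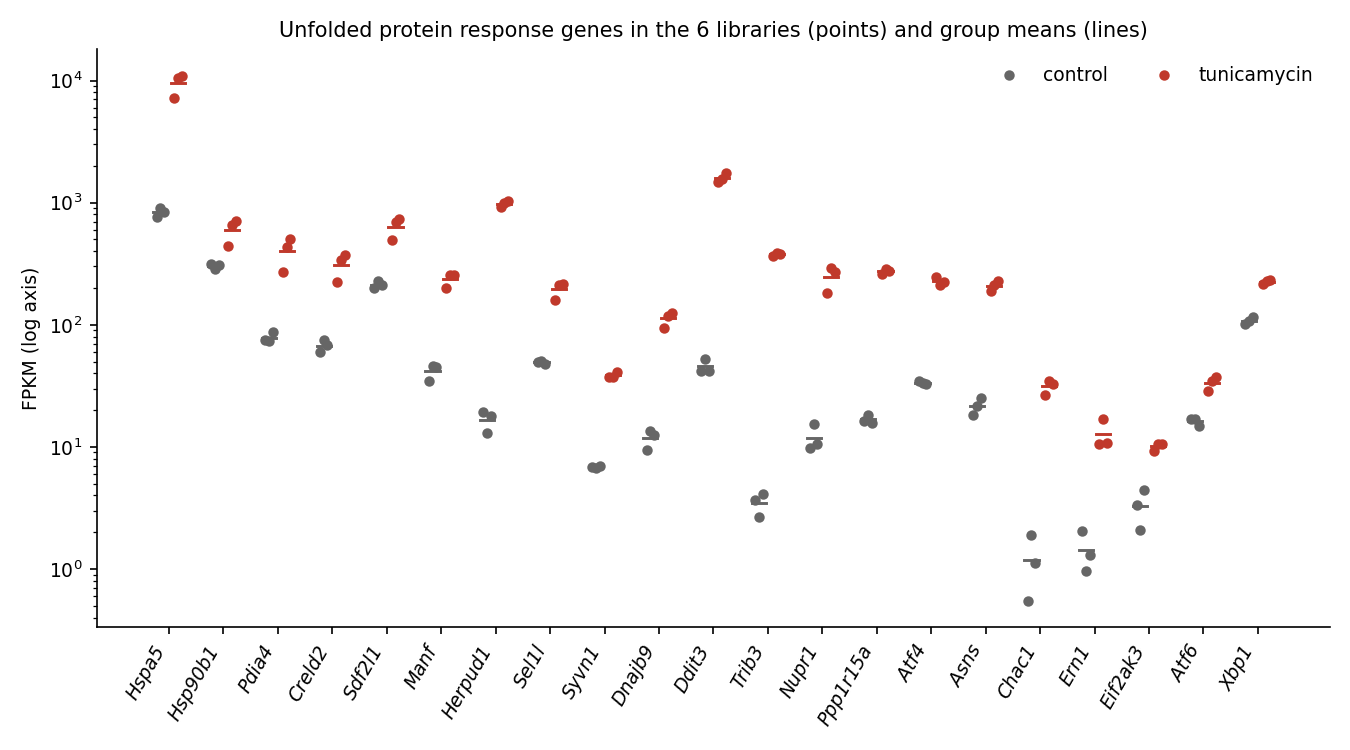
FPKM on a log axis of 21 unfolded protein response genes in the 3 control (grey) and 3 tunicamycin (red) libraries, with points in the order of the replicate number and lines for the group means. The groups do not overlap in any of these genes, and the lowest red point of the ER chaperones on the left is replicate 1.

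Disulfide and proline isomerases were less uniform, with 7 of 28 tested members higher, 3 lower and 18 not passed. Pdia4, an ER disulfide isomerase, was at 75, 73 and 86.9 FPKM in controls and at 272, 430.3 and 508 FPKM with tunicamycin (4.95-fold, log2 difference 2.31 ± 0.18). Ero1l, the oxidase that recharges these enzymes, rose 3.88-fold to 77.7 ± 17.1 FPKM and Pdia6 1.76-fold to 482 ± 71.8. The most abundant isomerases did not pass: P4hb was at 388 ± 6.84 and 439.7 ± 39.6 FPKM (log2 difference 0.18 ± 0.09) and Pdia3 at 539.7 ± 41.4 and 685 ± 146 (0.32 ± 0.15). Both passed as higher with quantile normalization (log2 differences 0.50 and 0.64), and Pdia3 also without tunicamycin replicate 1 (0.51, adjusted p = 0.00852).

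ER-associated degradation, which takes misfolded proteins out of the ER for the proteasome, rose in 18 of 44 tested members, with 1 lower and 25 not passed; the fall was lost without control replicate 1, control replicate 2 or tunicamycin replicate 3. Herpud1, a scaffold of the degradation complex (chromosome 8, 94386438 to 94395377, plus strand), was at 19.4, 13 and 17.8 FPKM in controls. With tunicamycin it was at 915, 994 and 1031 FPKM, 55.9-fold higher (log2 difference 5.80 ± 0.12, limma adjusted p = 1.24e-14), which took it from rank 3533 to 4496 to rank 49 to 58. The ubiquitin ligase of the complex, Syvn1, rose 5.05-fold to 38.6 ± 2 FPKM and its partner Sel1l 3.86-fold to 196 ± 31.5. Derl1, a channel component, rose 2.03-fold. Its relative Derl3 was listed at 0 in the controls and at 1.54, 7.13 and 7.32 FPKM with tunicamycin. Edem1, a mannosidase-like gene often used as an XBP1 target, stood at 83.3, 76.9 and 81.2 FPKM in controls and at 79.2, 93.1 and 97.3 FPKM with tunicamycin and did not pass (log2 difference 0.15 ± 0.10, limma adjusted p = 0.27).

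The channel that brings proteins into the ER moved in both directions. The small subunits Sec61b and Sec61g fell, from 164 ± 16 to 85.8 ± 16.1 FPKM and from 118 ± 14.9 to 60 ± 11.6 FPKM (log2 differences -0.94 ± 0.24 and -0.98 ± 0.16). The large subunit Sec61a1 was at 122 ± 17.4 and 145 ± 20.2 FPKM and did not pass, but passed as higher with quantile normalization (0.40, adjusted p = 0.0259). The signal recognition particle genes Srp68 (1.83-fold) and Srp19 (1.73-fold) rose. Of 25 tested members 6 rose and 5 fell, or 3 fell without control replicate 2 or tunicamycin replicate 1.

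Export from the ER was more one-sided, with 21 of 46 tested members of COPII coats, cargo receptors and retrieval higher, 3 lower and 22 not passed (median log2 difference 0.38). Stx5a, a membrane fusion protein of ER to Golgi transport, rose 3.79-fold from 25.7 ± 2.15 to 99.9 ± 3.53 FPKM. Sec24d, a coat subunit that selects cargo, rose 2.32-fold and Mcfd2, a cargo receptor subunit, 2.08-fold to 167 ± 33.9 FPKM. The count of falls dropped to 1 without control replicate 3 or tunicamycin replicate 3.

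In the N-glycosylation pathway, the gene of tunicamycin's own target did not pass. Dpagt1, which encodes the enzyme that tunicamycin inhibits, stood at 66.9, 58.7 and 53.8 FPKM in controls and at 55, 57.4 and 63.3 FPKM with tunicamycin (log2 difference -0.03 ± 0.13, limma adjusted p = 0.902). The groups overlap. Among those that rose were genes that make sugar nucleotides: Gfpt1, the entry enzyme of the hexosamine pathway, went from 2.19 ± 0.275 to 5.98 ± 0.712 FPKM (2.19-fold), and Gnpnat1 (2.3-fold), Uap1 (2.43-fold) and Gmppb (2.02-fold) rose too. Gnpnat1 shares 81.9% of its exonic bases and Gmppb 33.6% with a gene on the other strand. Dad1 and Tmem258, small subunits of the oligosaccharyltransferase, fell from 331 ± 27.1 to 129 ± 13.9 FPKM (log2 difference -1.35 ± 0.13) and from 222 ± 11.2 to 94.8 ± 23.3 FPKM (-1.25 ± 0.19). Of 50 tested members 10 rose, 8 fell and 32 did not pass, and the falls numbered 4 without control replicate 1 and 5 without control replicate 2 or tunicamycin replicate 2. These shares are near those of all genes. The mannosyltransferase gene Alg12, which shares the ERSE shown for Creld2 on the opposite strand, rose 1.62-fold (adjusted p = 0.02), but not without control replicate 1 (0.101) or tunicamycin replicate 3 (0.125).

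Genes that shape the ER or mark it for autophagy fell more often than they rose (6 lower, 1 higher, 8 not passed of 15). The rise was lost without control replicate 3 or tunicamycin replicate 3. Fam134c, an ER-phagy receptor, fell from 16.8 ± 2.25 to 4.99 ± 0.572 FPKM (log2 difference -1.57 ± 0.22), Ckap4, a protein of ER sheets, from 28.4 ± 2.7 to 10.6 ± 5.6 (-1.49 ± 0.29), and Arl6ip1, which bends ER tubules, from 215 ± 9.32 to 123 ± 10.6 (-0.81 ± 0.10). Of 7 tested genes reported elsewhere as mRNAs that IRE1 cleaves, 3 fell and 0 rose, or 1 rose with only the 6 libraries in the fit. The falls numbered 2 without control replicate 3 or tunicamycin replicate 1. The best known of the 7 genes, Bloc1s1, a subunit of lysosome positioning, went from 57.5, 48.1 and 45.4 to 19.3, 20.9 and 21.6 FPKM (log2 difference -1.24 ± 0.21), though it shares 55.9% of its exonic bases with the neighbouring gene Rdh5. Pmp22, a membrane protein, went from 378 ± 22.1 to 239 ± 12.7 FPKM (-0.66 ± 0.09).

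Cytosolic tRNA synthetases rose broadly, and other genes of amino acid supply in part. Of the 20 cytosolic aminoacyl-tRNA synthetases, which load tRNAs for translation, 15 rose and 0 fell (median log2 difference 1.22), led by Aars from 61 ± 7.95 to 234 ± 6.29 FPKM (3.82-fold), Sars (3.27-fold) and Iars (3.18-fold). The 17 mitochondrial synthetases had 2 higher, 1 lower and 14 not passed. The rises numbered 4 without control replicate 2 and 1 without any other library, and the fall was lost without control replicate 1, control replicate 2 or tunicamycin replicate 2. Asns, the asparagine synthetase and a textbook ATF4 target, was at 18.1, 21.7 and 25.3 FPKM in controls and at 190.4, 210.3 and 226 FPKM with tunicamycin (9.31-fold, log2 difference 3.22 ± 0.14). Pck2 (4.8-fold) and Aldh18a1, the first enzyme of proline synthesis (4.06-fold), rose with it, in a list of serine, one-carbon and amino acid synthesis with 11 higher, 2 lower and 15 not passed of 28. The 2 falls were Mat2a, which makes the methyl donor S-adenosylmethionine, from 73.9 ± 6.87 to 25.9 ± 1.86 FPKM (log2 difference -1.47 ± 0.15), and the folate enzyme Mthfd1 (-0.58 ± 0.16).

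Amino acid transporters split by gene, with 11 of 29 higher, 5 lower and 13 not passed. Slc1a4, a carrier of alanine, serine and cysteine, rose from 0.858, 0.727 and 0.0878 to 11.7, 14.1 and 14.2 FPKM (9.43-fold). The leucine exchanger subunit Slc7a5 rose 5.94-fold to 29.3 ± 1.86 FPKM, Slc38a2 5.88-fold to 82 ± 4.48, and the cystine carrier Slc7a11 3.28-fold to 7.06 ± 0.225. The mitochondrial carrier Slc25a13 (log2 difference -1.44 ± 0.17), the glutamine carrier Slc1a5 (-0.92 ± 0.18) and the taurine carrier Slc6a6 (-0.86 ± 0.12) fell.

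Translation genes also went in opposite directions by class. Among 50 initiation factors and their regulators 15 rose, 13 fell and 22 did not pass, with 8 falls without tunicamycin replicate 3. Eif4ebp1, a repressor of cap-dependent initiation and an ATF4 target, rose 3.13-fold from 72.5 ± 1.28 to 230.1 ± 22.5 FPKM, while Eif4e, the cap-binding factor that it holds, fell from 133 ± 11.6 to 71.5 ± 4.69 (log2 difference -0.89 ± 0.11). Eif5 (2.91-fold) and Eif2s2 (2.06-fold), which work with initiator tRNA, rose and Eif3k (-0.94 ± 0.12) fell. Of 80 cytosolic ribosomal proteins 63 fell, 0 rose and 17 did not pass (median log2 difference -0.52), among them Rps15 (log2 difference -1.60 ± 0.09), Rpl37a (-1.42 ± 0.10) and Rpl37 (-1.12 ± 0.14). Their summed level was 33996 to 40095 FPKM in controls and 25693 to 27005 with tunicamycin. With quantile normalization 44 of the 80 fell and 5 were higher. Noncoding host genes of small nucleolar RNAs, whose spliced RNAs are degraded during translation, had 6 higher, 0 lower and 8 not passed of 14, with Snhg5 at 4.48, 3.47 and 3.78 FPKM in controls and at 14.8, 18.5 and 19.7 FPKM with tunicamycin, and Snhg12 at 1.88 ± 0.98 and 6.37 ± 1.48.

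Short transcripts fell more than long ones over all genes, and this moved with the ribosomal and respiratory results. The median log2 difference was -0.48 for genes with transcripts under 700 bases, -0.28 from 700 to 1000, -0.04 from 1000 to 2000, 0.06 from 2000 to 4000 and 0.08 above, and 46.0% of the shortest class fell against 12.4% of the longest. Cytosolic ribosomal protein genes had medians of -0.65, -0.52, -0.45 and -0.46 in the first 4 of these classes, and respiratory genes -0.48, -0.68, -0.27 and -0.24. In the main fit 63 of 80 ribosomal and 48 of 80 respiratory genes fell. With only transcripts of at least 1000 bases in the fit, 34 of 45 ribosomal and 21 of 44 respiratory genes fell. A correction for a smooth trend with transcript length in each library was also tried, an alternative chosen after seeing the data. After it, 53 of 80 ribosomal and 36 of 79 respiratory genes fell. The shares of ribosomal and of respiratory genes that fell were thus both lower in each alternative than in the main fit.

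Nuclear genes of the respiratory chain and ATP synthase fell in 48 of 80 cases, with 3 higher and 29 not passed (median log2 difference -0.43). Without control replicate 1 or 3, or tunicamycin replicate 2 or 3, 1 was higher. With quantile normalization 32 fell and 7 were higher. Uqcrh, a hinge subunit of complex III, went from 142, 179 and 190.1 to 35, 30.1 and 34.6 FPKM (log2 difference -2.31 ± 0.16), Atp5k, a subunit of ATP synthase, from 378 ± 20.2 to 101 ± 4.3 (-1.89 ± 0.12), and Ndufb3, of complex I, from 132 ± 20.3 to 43.6 ± 5.86 (-1.57 ± 0.13). Mitochondrial ribosomal proteins were mixed, with 13 higher, 20 lower and 44 not passed of 77. The largest falls were Mrpl18 (-1.94 ± 0.14) and Mrps21 (-1.30 ± 0.15), and there were 7 rises without control replicate 1 and 11 falls without control replicate 2. Mitochondrial chaperones and proteases rose in 5 of 15 cases and fell in 1, with Hspa9, the mitochondrial Hsp70, going from 112 ± 1.21 to 297 ± 31.8 FPKM (2.62-fold), the protease Lonp1 2.87-fold higher and Grpel2 2.64-fold.

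The cytosolic Hsp70 gene Hspa8 fell while its ER and mitochondrial relatives rose. It stood at 1522, 1699 and 1681 FPKM in controls and at 327, 288 and 288 FPKM with tunicamycin (5.42-fold lower, log2 difference -2.44 ± 0.08, limma adjusted p = 1.57e-12). Hspa8, like the ribosomal protein genes and Actg1, Tmsb4x and Ftl1 below, has processed copies in the genome. The sources used here do not give how reads of such copies were assigned, so these levels are uncertain. Other abundant cytosolic chaperones did not pass: Hsp90aa1 was at 115 ± 8.4 and 103 ± 9.21 FPKM, and Hsp90ab1 at 489 ± 4.34 and 425 ± 29.3 (log2 difference -0.20 ± 0.09, 0.15 with quantile normalization). Over the list of 23 cytosolic heat shock genes 4 rose, 5 fell and 14 did not pass, and the rises numbered 1 without control replicate 1 or tunicamycin replicate 3 and 2 without control replicate 3.

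Abundant genes of other kinds also moved. The autophagy receptor Sqstm1 (p62) had the second largest gain in FPKM among genes that passed, after Hspa5, from 664, 650.2 and 668 to 3529, 3118 and 3446 FPKM (5.08-fold, log2 difference 2.34 ± 0.11), and 15 of 36 core autophagy genes rose with 1 lower, among them Optn, another receptor (3-fold), and Atg13, a subunit of the initiating kinase complex (2.47-fold). Polyubiquitin Ubb was at 946 ± 46.9 and 1506 ± 29.5 FPKM (1.59-fold), and Gm1821, annotated as a transcribed processed pseudogene, was 1.63-fold higher; near-identical copies may share reads, so both are uncertain. Apoe, a lipid carrier, went from 1764 ± 397 to 2582 ± 263 FPKM, a call that was lost without control replicate 1 (log2 0.37, adjusted p = 0.118), tunicamycin replicate 2 (0.0706) or tunicamycin replicate 3 (0.0699). On the losing side, the actin-binding peptide gene Tmsb4x fell from 8613 ± 1156 to 3348 ± 75.8 FPKM (log2 difference -1.35 ± 0.09), Actg1, cytoplasmic actin, from 3611 ± 193 to 1228 ± 125 (-1.56 ± 0.11), and the lectin Lgals1 from 3106 ± 238 to 1614 ± 105 (-0.94 ± 0.10). The ferritin light chain Ftl1, the most abundant gene in all 6 libraries, went from 60793 ± 698 to 46806 ± 2579.9 FPKM, a fall that is 0 by construction with quantile normalization, since the top rank then holds the same value in each library.

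Sterol genes fell more often than they rose. Of 30 genes of sterol synthesis and uptake 12 fell, 2 rose and 16 did not pass, with 1 rise on leaving out any library but control replicate 3. The synthesis enzymes Acat2, from 10.8, 7.54 and 10.1 to 3.78, 2.02 and 1.51 FPKM (log2 difference -1.65 ± 0.29), and Idi1 (-1.49 ± 0.24) fell, while Mvd, of the same pathway, rose 2.48-fold. The cholesterol exporters Abca1 (2.33-fold) and Abcg1 (2.06-fold) rose, in a list of cholesterol efflux and fatty acid genes with 8 higher and 10 lower of 27. Its rises numbered 5 without control replicate 2 or tunicamycin replicate 1 and 4 without tunicamycin replicate 3. In the list of glycolysis and HIF-1 targets 14 of 30 fell and 4 rose, with the lactate exporter Slc16a3 at -1.27 ± 0.13 and Ldha, the abundant lactate dehydrogenase, at -0.80 ± 0.09 (2105 ± 63.6 and 1209.8 ± 74.1 FPKM). Without tunicamycin replicate 2 these were 9 falls and 2 rises.

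Genes of cell division fell and growth arrest genes split. In the cell cycle and replication list 35 of 56 fell, 0 rose and 21 did not pass (median log2 difference -0.64). Ccnd1, the cyclin D1 gene, went from 23.8, 30.1 and 28.1 to 4.77, 3.68 and 2.83 FPKM (log2 difference -2.59 ± 0.29), Ccnd3 from 39.4 ± 9.94 to 9.95 ± 1.97 (-1.87 ± 0.21), and Gmnn, which limits replication licensing, from 75.6 ± 13.4 to 28.5 ± 2.8 (-1.37 ± 0.15). Gadd45a, a DNA damage and stress gene (chromosome 6, 67035096 to 67037457, minus strand), rose from 2.92, 5.39 and 6.18 to 126, 171 and 177 FPKM (27.8-fold, log2 difference 4.80 ± 0.23). The sestrins, which restrain mTORC1, went opposite ways, Sesn2 up from 8.34 ± 0.426 to 53.9 ± 3.6 FPKM (5.87-fold) and Sesn1 down from 38.1 ± 1.26 to 6.09 ± 2.22 (5.7-fold lower). Tsc22d3 (GILZ) rose 3.9-fold, and the polo-like kinases Plk3 (-2.06 ± 0.28) and Plk2 (-1.07 ± 0.11) fell, for 10 higher, 6 lower and 3 not passed of 19.

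Death genes moved in both directions. Bcl2l1, which encodes the survival protein BCL-XL, fell from 81.2, 91.6 and 82.3 to 14.1, 12.7 and 11.7 FPKM (6.23-fold lower, log2 difference -2.64 ± 0.11), and Mcl1, another survival gene, from 64.8 ± 1.72 to 33.9 ± 10.4 (-0.97 ± 0.17). The death receptor Fas rose 5.25-fold to 35.6 ± 2.92 FPKM and Bbc3, the BH3-only protein PUMA, 2.8-fold to 14 ± 0.74, as did the inhibitor of death signalling Birc3 (2.84-fold). Over 29 genes 8 rose, 5 fell and 16 did not pass, with 3 falls without tunicamycin replicate 3. Over all genes 17.9% were higher and 16.6% lower, so the share of falls is near that of all genes.

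The monocyte-attracting chemokine Ccl2 fell furthest of all genes tested. Ccl2 (chromosome 11, 82035571 to 82037453, plus strand) was at 379, 604 and 454 FPKM in controls and at 16.3, 18.8 and 13.6 FPKM with tunicamycin (27.6-fold lower, limma adjusted p = 7.21e-13), and its neighbour Ccl7 fell from 420.4, 603 and 504 to 28.2, 32.6 and 30.3 FPKM (16.1-fold lower). Ccl4, a chemokine of macrophages and T cells, went from 317 ± 38.3 to 45.3 ± 11.5 FPKM (log2 difference -2.80 ± 0.14). Other chemokines rose from low levels: Cxcl10 from 3.08, 1.34 and 3.52 to 25.8, 27.1 and 16.3 FPKM, the neutrophil attractant Cxcl1 from 0.509 ± 0.267 to 5.16 ± 2.51, and the membrane-bound Cxcl16 from 28.9 ± 7.75 to 96.4 ± 4.42 (3.34-fold). Of 20 tested, 7 fell, 4 rose and 9 did not pass, or 8 rose with only the 6 libraries in the fit. Among 38 cytokine and growth factor genes, 8 rose, 5 fell and 25 did not pass. Csf1, the gene of M-CSF on which these cells were grown, rose from 4.68, 3.7 and 6.81 to 34.9, 37.7 and 35.6 FPKM (6.25-fold, log2 difference 2.64 ± 0.17), Osm 2.43-fold and the stress cytokine Gdf15 from 35.8 ± 5.43 to 92.3 ± 10.9 FPKM, and Pdgfb fell (-1.30 ± 0.24). Il23a, a subunit of interleukin-23, was listed at 0 in the 3 controls and at 0, 0.266 and 0.591 FPKM with tunicamycin and did not pass (limma adjusted p = 0.278).

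Surface receptors of macrophages fell more than they rose. C5ar1, the receptor of complement C5a (chromosome 7, 16246743 to 16259540, minus strand), fell from 540.1, 613 and 592 to 36.8, 37.7 and 26.2 FPKM (17-fold lower, log2 difference -4.09 ± 0.15). Neutrophils also carry C5ar1, and the part of the falling neutrophil marker sum given above was not tested. The oxysterol receptor Gpr183 went from 30 ± 2.44 to 3.01 ± 1.15 FPKM (-2.99 ± 0.28). The medium-chain fatty acid receptor Gpr84, by contrast, rose from 15.6, 20 and 17.2 to 167, 180.1 and 154 FPKM (9.06-fold), with 39.5% of its exonic bases shared with an antisense gene. Ptafr, for platelet-activating factor (3.13-fold), and Ccrl2 (3.22-fold) rose too, for 11 higher, 17 lower and 14 not passed of 42 chemoattractant and metabolite receptors.

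Outside this list, among the 15 largest rises stood Ptgir, the prostacyclin receptor, which went from 4.96, 4.06 and 4.24 to 53.7, 55.9 and 54.5 FPKM (10.3-fold). Ffar2, the short-chain fatty acid receptor (chromosome 7, 30818348 to 30823775, minus strand), was listed at 0 in all 3 controls and at 6.66, 9.83 and 9.1 FPKM with tunicamycin. The water and glycerol channel Aqp9 went from 0.531 ± 0.559 to 13.4 ± 2.23 FPKM. Among the 15 largest falls stood Crip1, a small LIM protein, from 535, 612 and 594 to 56.3, 50.1 and 66.9 FPKM (log2 difference -3.31 ± 0.12), Trappc1, of vesicle tethering, from 103 ± 9.34 to 13.5 ± 1.7 (-2.84 ± 0.15), Rab3il1 (-2.85 ± 0.14) and the urokinase gene Plau, from 8.4 ± 2.54 to 0.376 ± 0.253 (-2.75 ± 0.29). The neutrophil marker S100a8 fell from 77.8, 65.4 and 57.9 to 8.69, 5.92 and 12.8 FPKM (-2.79 ± 0.48), beside the falling sum of neutrophil markers given above. Amd1, with 25.8, 0.057 and 14 FPKM in the controls, was at 0.0449, 0.0467 and 0.0439 FPKM with tunicamycin (adjusted p = 0.0489), and did not pass without control replicate 1 (0.212), control replicate 3 (0.156) or any 1 of the tunicamycin libraries (0.0949 to 0.102). Amd1 has near-identical copies, so its level is uncertain. The microRNA gene Mir8112, which lies in an exon of Krcc1 on the same strand (95.4% shared), was listed at 15.7, 14.7 and 16.1 FPKM in controls and at 0 in every other library of the series.

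Scavenger and efferocytosis receptors, with which macrophages take up lipoproteins and dead cells, had 12 of 23 lower and 1 higher, or 0 higher without control replicate 1, control replicate 3 or tunicamycin replicate 2. Msr1, the class A scavenger receptor, fell from 433, 477 and 453 to 108, 129 and 110.2 FPKM (log2 difference -1.97 ± 0.10) and Havcr2 (TIM-3) from 38.4 ± 2.82 to 11.3 ± 3.55 (-1.73 ± 0.19). The abundant endosomal glycoprotein Cd68 fell less, from 4298 ± 138 to 2886 ± 221 FPKM (-0.58 ± 0.08). Among 18 Fc receptors and signalling adaptors 4 rose, 6 fell and 8 did not pass. The activating receptors Fcgr3 (-2.03 ± 0.14, from 469.7 ± 17.4 to 115 ± 20.9 FPKM), Fcgr4 (-1.30 ± 0.28) and Fcgr1 (-1.15 ± 0.20) fell, and the inhibitory Fcgr2b rose 2.45-fold from 31.5 ± 9.88 to 76.2 ± 3.05 FPKM. Of 20 integrin and adhesion genes 9 fell and 3 rose, with Cd9 (-1.32 ± 0.10), Itgb2, the beta-2 integrin (-1.26 ± 0.11), and Itga6 (-1.15 ± 0.16) lower and Icam1 higher, from 53.2, 56.9 and 57.2 to 246, 223 and 212 FPKM (4.01-fold). The C-type lectin Clec4e, which senses dead cells and mycobacteria, rose 3.51-fold to 111 ± 2.49 FPKM.

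**Figure D3:**
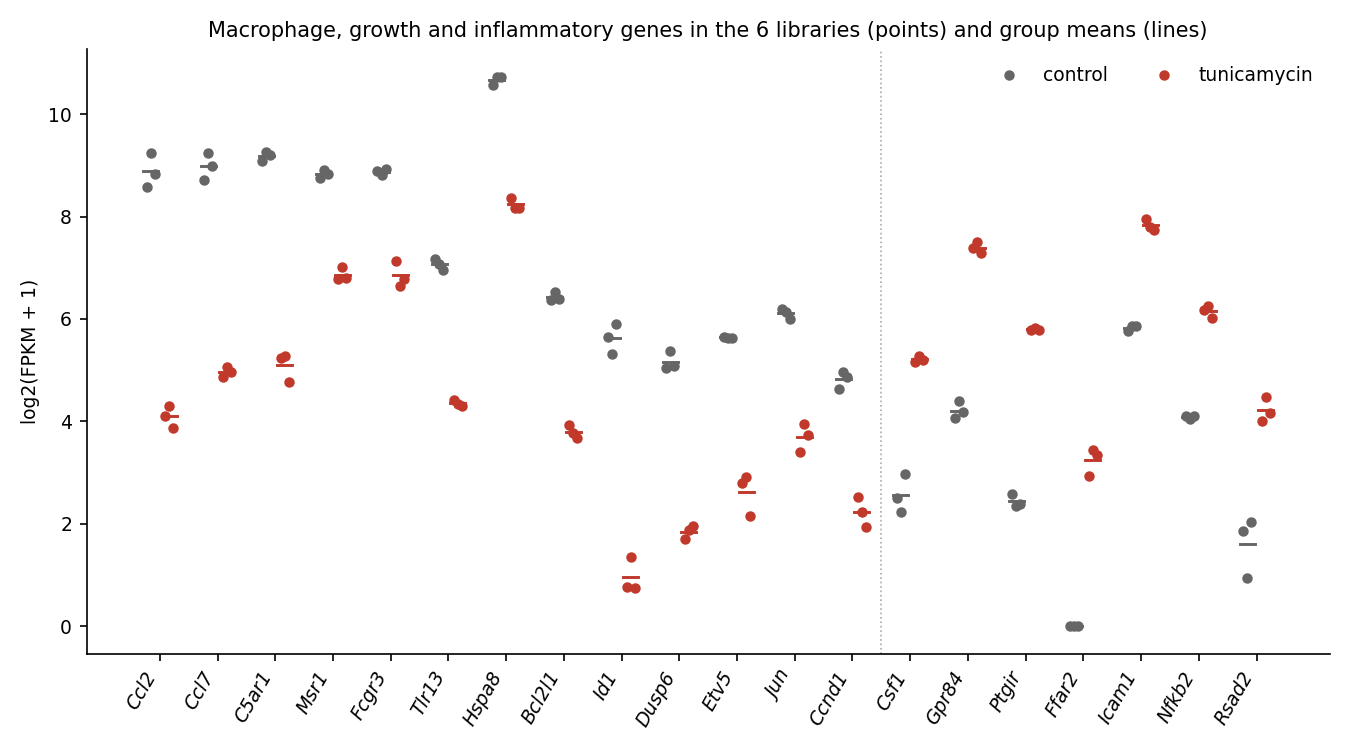
Level in log2(FPKM + 1) of 20 macrophage, growth and inflammatory genes in the 3 control (grey) and 3 tunicamycin (red) libraries, with lines for the group means. The 13 genes left of the dotted line were lower and the 7 right of it higher with tunicamycin, and the groups do not overlap in any of them; Ffar2 is listed at 0 in the controls.

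Pattern receptors changed gene by gene (6 higher, 6 lower, 12 not passed of 24 Toll-like receptors, adaptors and co-receptors). Tlr4, the LPS receptor, was at 22, 23.6 and 20.3 FPKM in controls and at 17.4, 19.3 and 21.2 FPKM with tunicamycin and did not pass (log2 difference -0.18 ± 0.19, limma adjusted p = 0.502). Its co-receptor Cd14 fell from 288 ± 32.6 to 135 ± 5.32 FPKM (-1.09 ± 0.09), and its adaptor gene Ticam2 (TRAM) rose from 6.19, 7.4 and 7.69 to 76.5, 76.9 and 82.2 FPKM (9.85-fold). Ticam2 shares 14.5% of its exonic bases with a neighbouring gene on the same strand, and the part of this overlap was not tested. Tlr13, which senses bacterial ribosomal RNA, fell from 133 ± 9.15 to 19.4 ± 0.868 FPKM (-2.72 ± 0.13), as did Cd180 (-2.39 ± 0.26) and Tlr6 (-1.17 ± 0.26), and Tlr2 (2.4-fold) and the inhibitor Irak3 (2.18-fold) rose.

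NF-kB and interferon-stimulated genes rose more often than they fell without LPS. Of 33 NF-kB subunits and feedback genes 21 rose, 4 fell and 8 did not pass (median log2 difference 0.87). The noncanonical subunits Nfkb2 and Relb went from 16.2, 15.5 and 16.2 to 71.5, 75.2 and 63.6 FPKM (4.18-fold) and from 14.5 ± 2.62 to 67.6 ± 4.57 (4.47-fold), and the co-stimulatory receptor Cd40 from 6.65 ± 1.68 to 33.6 ± 0.736 (4.6-fold). Of 51 interferon-stimulated genes 29 rose, 3 fell and 19 did not pass (median 0.70), among them the antiviral genes Rsad2, from 2.62, 0.923 and 3.07 to 15, 21.2 and 17 FPKM, Ifit1 (5.47-fold) and Cmpk2 (5.46-fold). Casp4, known as caspase-11, which detects LPS in the cytosol, rose 4.18-fold from 9.76 ± 0.915 to 44.1 ± 6.4 FPKM, in a list of inflammasome genes with 8 higher, 1 lower (2 without control replicate 1) and 10 not passed of 19.

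Transcription factors and signalling feedback showed some of the sharpest falls. Id1, an inhibitor of helix-loop-helix factors (chromosome 2, 152736251 to 152737410, plus strand), fell from 48.9, 38.9 and 58.8 to 0.71, 1.54 and 0.667 FPKM (25.4-fold lower, log2 difference -4.67 ± 0.22), while its relative Id3 rose from 114 ± 10.4 to 243 ± 17.1 (2.13-fold). A list of BMP and TGF-beta signalling genes had 3 of 24 higher and 1 lower, beside 17.9% higher and 16.6% lower over all genes. This pathway is known to drive Id genes, and its part in the fall of Id1 was not tested. Of 12 MAP kinase phosphatases, Sprouty genes and related ERK targets 8 fell and 0 rose: Dusp6, which inactivates ERK, went from 32, 40.2 and 32.7 to 2.24, 2.68 and 2.86 FPKM (9.98-fold lower), the ERK-induced factor Etv5 from 49, 48.7 and 48.7 to 5.96, 6.56 and 3.43 (8.09-fold lower) and the inhibitor Spred1 from 21.2 ± 7.57 to 3.79 ± 2 (-2.23 ± 0.28). The AP-1 genes Jun and Fos fell from 68.1 ± 4.43 to 12.1 ± 2.49 FPKM (-2.41 ± 0.17) and from 41.9 ± 9.26 to 8.66 ± 2.58 (-2.16 ± 0.23), with Egr2 lower (-1.47 ± 0.28) and Jdp2 higher (2.93-fold), for 5 higher, 6 lower and 13 not passed of 24.

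Among other families, Klf4 rose from 0.412, 0.176 and 0.614 to 4.74, 5.33 and 4.95 FPKM and Klf2 fell from 5.33 ± 1.21 to 1.12 ± 0.186 (-1.56 ± 0.22). Myc fell (-1.23 ± 0.19, from 35.9 ± 3.76 to 14.7 ± 1.68 FPKM) and the MYC antagonist Mxd1 rose 4.28-fold. Circadian clock and output genes had 9 higher, 0 lower and 7 not passed of 16, with Nfil3 going from 3.75, 7.5 and 8.22 to 53.5, 48.1 and 45.9 FPKM (6.96-fold), Arntl, the clock factor BMAL1, 2.43-fold higher and Ciart 2.36-fold. The macrophage differentiation factor Maf fell from 12.3 ± 1.39 to 1.73 ± 0.162 FPKM (-2.28 ± 0.19), in a list of lineage factors with 8 higher, among them Cebpd (2.16-fold), 6 lower and 12 not passed of 26.

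The plot of list counts sets these groups side by side. The highest share of rises is that of the ATF4 pathway, with 17 of 21, and the highest share of falls that of cytosolic ribosomal proteins, with 63 of 80. The place of the ribosomal proteins depends on the scaling. With quantile normalization 44 of the 80 fell, against 38 of 56 cell cycle genes. N-glycosylation, the translocon and the proteasome lie near the values of all genes.

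**Figure D4:**
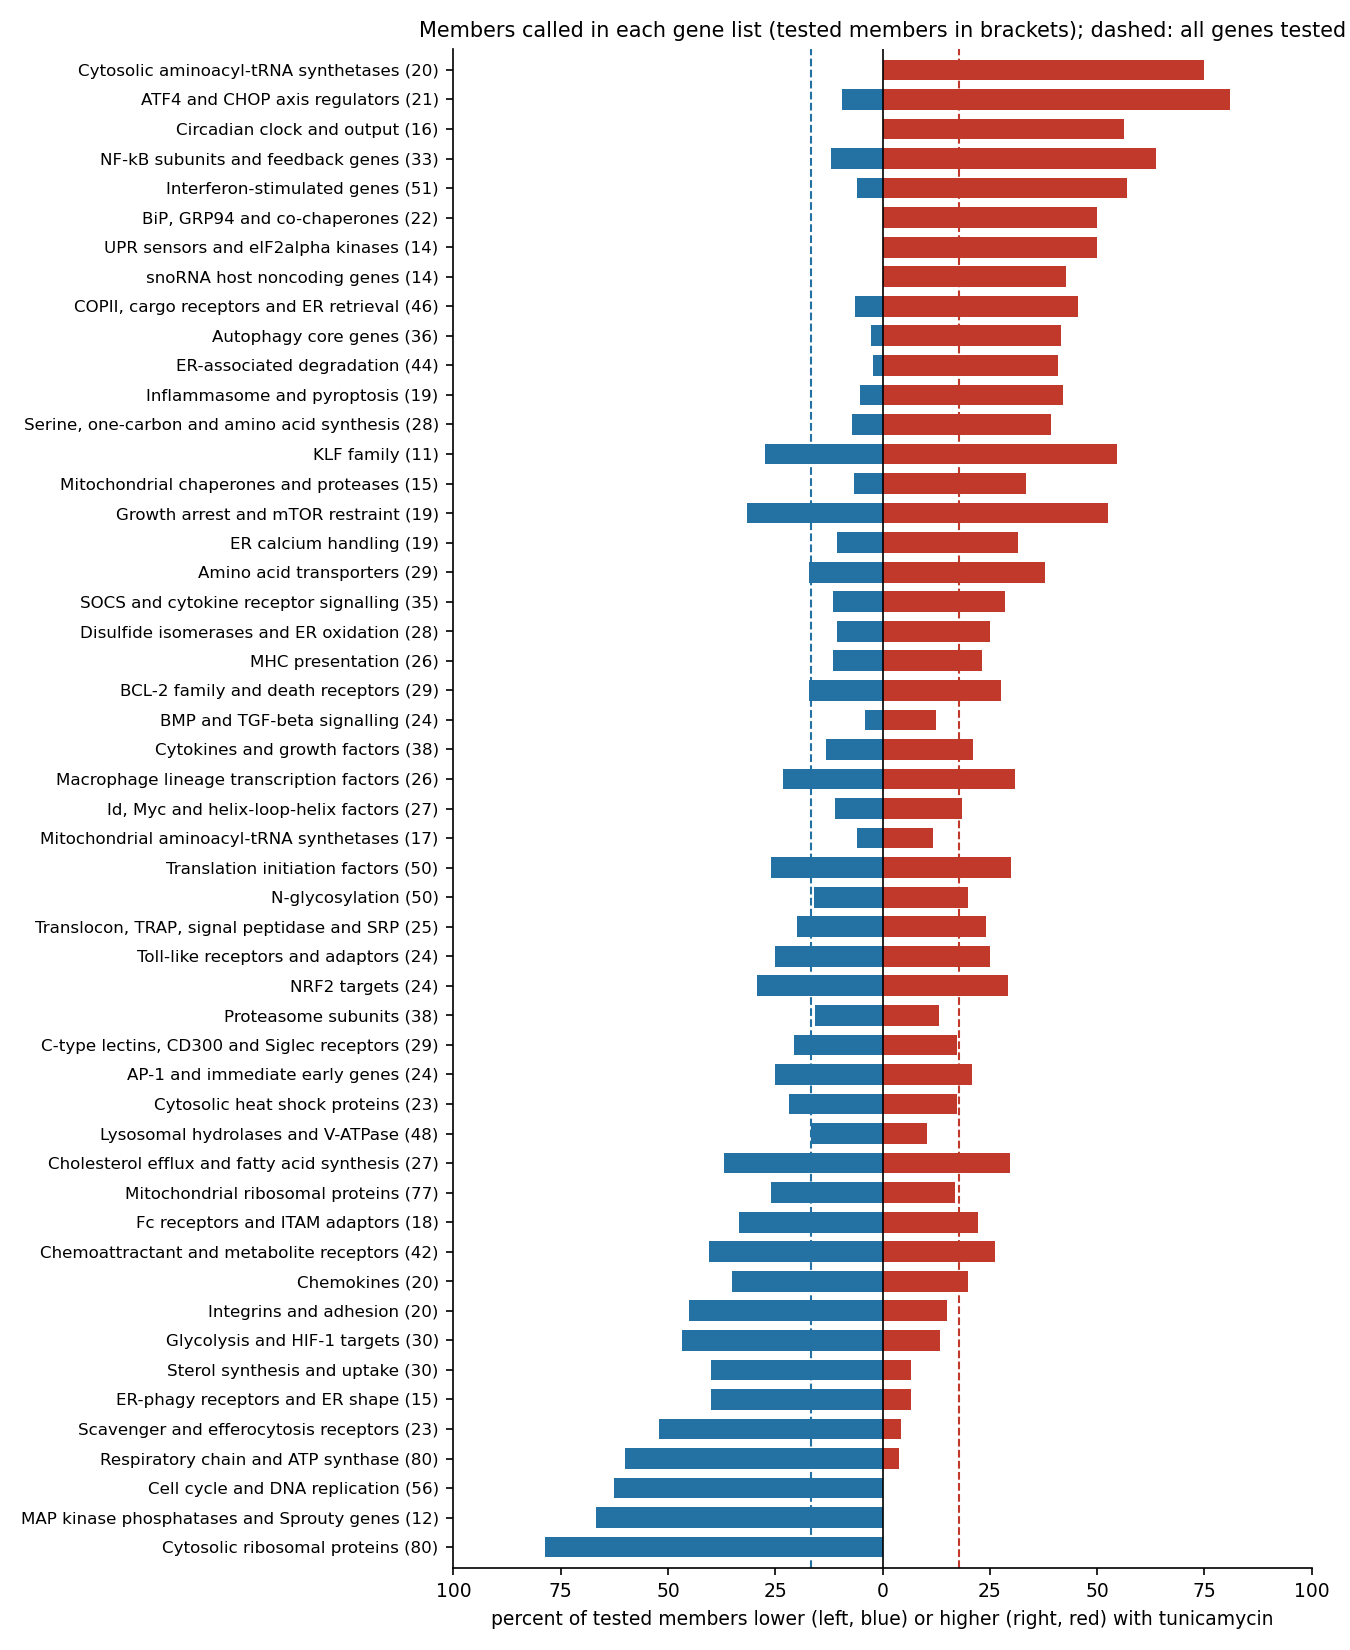
Percent of tested members of each gene list (number tested in brackets) that were higher (red, to the right) or lower (blue, to the left) with tunicamycin at an adjusted p under 0.05, for lists with at least 10 tested members other than cell type markers and numbered zinc finger genes. Dashed lines mark 17.9% higher and 16.6% lower over all 10311 genes; lists are ordered by the share higher minus the share lower.

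The tunicamycin effect was measured again in the 6 libraries with LPS, which share no library with the comparison above. There 13.8% of genes were higher and 15.1% lower with tunicamycin plus LPS than with LPS alone. Both effects came from the same fit of all 12 libraries, with a shared estimate of each gene's spread, so their calls are not separate tests. Of the 1843 genes that rose without LPS, 932 also rose with it (50.6%) and 33 fell, and of the 1714 that fell, 1047 fell (61.1%) and 28 rose. For changes of at least 2-fold the shares were 62.9% of 577 and 70.8% of 466. Some of the largest changes were close in both settings: Hspa5 had a log2 difference of 3.49 ± 0.14 without and 3.49 ± 0.14 with LPS, Trib3 of 6.41 ± 0.15 and 6.55 ± 0.15, and Crip1 of -3.31 ± 0.12 and -3.08 ± 0.12. Others differed by the interaction test described next, among them Herpud1, Gadd45a, Ccl2, C5ar1 and Id1.

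The difference between both effects, tested as an interaction, passed for 3.37% of genes, 347 in all. Of these, 275 had passed without LPS, and the other 72 passed only with it. Counts of inflammatory lists differed between both settings, a difference that was tested by gene and not by list. Interferon-stimulated genes had 29 higher and 3 lower without LPS and 7 higher and 16 lower with it, with Cxcl10 at log2 differences of 2.75 ± 0.23 and -0.98 ± 0.23 (interaction -3.73 ± 0.33, limma adjusted p = 4.17e-06) and Ifit1 at 2.45 ± 0.30 and -0.72 ± 0.30 (interaction -3.17 ± 0.43, adjusted p = 0.000269). NF-kB genes had 21 higher and 4 lower without and 9 higher and 5 lower with LPS, with Nfkb2 at 2.06 ± 0.11 and 0.35 ± 0.11 (interaction adjusted p = 4.34e-06). Cytosolic ribosomal proteins had 63 and 36 falls, and of those named above Rps15 passed the interaction test (0.66 ± 0.13).

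Some genes that fell without LPS fell less or not at all with it. Ccl2 was at 1622, 2156 and 1853 FPKM with LPS and at 907, 853 and 890.4 FPKM with both agents (log2 difference -1.08 ± 0.15, interaction 3.71 ± 0.21, adjusted p = 2.7e-08). Dusp6 was at 5.43, 2.4 and 3.87 FPKM with LPS and 5.53, 6.93 and 5.95 FPKM with both agents, with log2 differences of -3.32 ± 0.22 without and 0.58 ± 0.22 with LPS (interaction adjusted p = 1.1e-06). Myc fell without LPS (-1.23 ± 0.19) and was higher with it (1.08 ± 0.19, interaction adjusted p = 6e-05). Il23a, which did not pass without LPS, was at 0.519, 0.186 and 0.31 FPKM with LPS and 56.5, 48.6 and 43.1 FPKM with both agents (log2 difference 5.23 ± 0.23). It passed the filter only through the group with both agents, where it was high, so this is a description. The plot of both effects shows these genes off the diagonal and many stress genes near it. The stress genes Herpud1, Gadd45a and Ppp1r15a lie off it, with interactions of -1.55, -2.04 and -1.18.

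**Figure D5:**
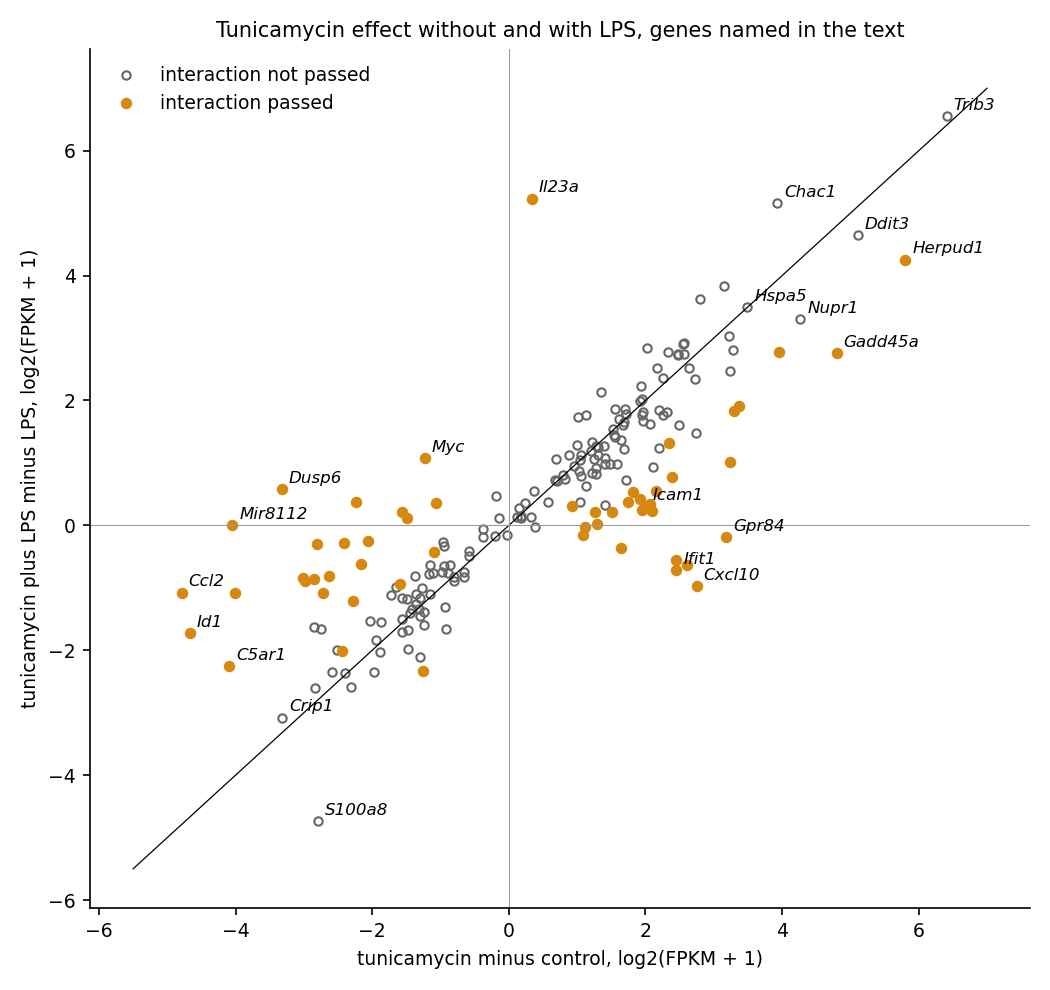
Log2 difference in log2(FPKM + 1) with tunicamycin alone (horizontal, tunicamycin minus control) and with LPS present (vertical, tunicamycin plus LPS minus LPS) for the 200 genes named in the text, 1 point a gene. Filled points passed the interaction test (54 genes); the line marks equal effects, on which Hspa5 and Trib3 lie closely, while Gpr84 and Dusp6 lie near 0 on the vertical axis.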

How the data were processed

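Total RNA of the 12 libraries (3 in each of 4 groups) was sequenced, and the authors deposited 1 table of FPKM per gene symbol and library. TopHat2 2.0.13, Bowtie2 2.2.3, SAMtools 0.1.19, Cufflinks 2.2.1 and mm10 are named per the submitters' processing notes, with no roles, and other settings are not given in the sources used here. No counts were used, and low FPKM did not show whole-read steps (7.07% to 19% of low genes near a common ratio), so depth is unknown and differences in low genes are imprecise. FPKM are shares of a library, so a rise of abundant genes lowers the others.

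Genes with at least 1 FPKM in at least 3 libraries were kept. In R 4.3.3, limma 3.58.1 (a mean per group over all 12 libraries, trended variance, no block) was run on log2(FPKM + 1), with Benjamini-Hochberg adjustment over 10311 genes and a threshold of 0.05. Contrasts were tunicamycin minus control, the same effect with LPS present (both agents minus LPS alone), and the difference of these effects (the interaction). On simulated data with 200 of 10311 genes changed in the comparison of tunicamycin and control, 34.3% of 1.5-fold, 64.2% of 2-fold and 100% of 4-fold changes were recovered, with 7.69% false calls. The changed genes were drawn only from those above a minimum mean level. Far more genes, 34.5%, were called in the data, and recovery depends on that share, so these rates may not hold here. No libraries were identical.

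The comparison, the gene lists and the fixed genes were chosen with earlier results of these data known. Named genes are the 15 largest rises and falls without overlap between groups (leaving out gene models with no standard symbol), the 8 largest gains and losses in FPKM, up to 3 rises, 3 falls and 2 abundant members that did not pass from each of 61 lists, a set of fixed genes, and members of the unfolded protein response lists. Of the tested symbols, 9913 (96.1%) matched 1 gene of GENCODE M21, from which coordinates, lengths and overlaps come. Promoter windows are from RefSeq on GRCm38.p6, and motifs were matched to the letter on both strands. Replicate numbers were not used to pair the samples, as the sources used here give no pairing. Same-numbered deviations had correlations of 0.0488, -0.00367 and 0.0656, which cannot decide whether samples were paired. Alternatives were another pseudocount, other filters, 2 other scalings, other limma settings, a replicate block, a 2-fold minimum, leaving out each library and, added after seeing the data, 2 on transcript length. Python 3.11.15 with pandas 2.3.3 and matplotlib 3.10.9 made the summaries and plots.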

Additional observations from a re-analysis of the deposited data

Results flagged for a closer look

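The tunicamycin effect differed with LPS (limma interaction, adjusted p under 0.05 over 10311 genes) for 54 of the 200 named genes. Values below are the log2 difference with LPS minus that without. Flags were given for named genes only, and 3.37% of all genes passed this test. Many named genes were chosen for large differences with tunicamycin alone, a term that the interaction subtracts. That choice favours interactions of the opposite sign, so the share of 54 of 200 cannot be compared with that of all genes.

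Among genes that fell without LPS and also fell with it, the interaction was 1.82 for the survival gene Bcl2l1, 1.84 for C5ar1, 3.71 for Ccl2, 2.93 for Ccl7, 0.656 for Cd14, 2.17 for Etv5, 2.1 for Gpr183, 0.429 for Hspa8, 2.94 for Id1, 1.07 for Maf, 1.99 for Rab3il1, 0.658 for Rps15 and 1.63 for Tlr13. Itgb2, the beta-2 integrin, had an interaction of -1.08, since its fall was larger with LPS. Genes that fell without LPS and did not pass with it were Ccl4 (2.5), Ckap4 (1.61), Dusp6 (3.9), Fos (1.54), Jun (2.13), Klf2 (1.78), Plk3 (1.8), Spred1 (2.61) and Mir8112 (4.05), the last listed at 0 in both groups with LPS. Myc (2.31) and Plk2 (1.43) fell without LPS and rose with it.

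Among genes that rose in both settings, the interaction was -0.613 for Atf3, -1.27 for Clec4e, -1.61 for Fas, -2.22 for Ffar2, -2.04 for Gadd45a, -1.55 for Herpud1, -1.69 for Icam1, -1.72 for Nfkb2, -1.18 for Ppp1r15a, -1.45 for Ptgir, -1.61 for Relb, -1.03 for Sqstm1 and -1.46 for Ticam2. Genes that rose without LPS and did not pass with it were Birc3 (-1.29), Cebpd (-1.14), Cmpk2 (-3.01), Cxcl1 (-1.7), Cxcl16 (-1.36), Fcgr2b (-1.27), Gpr84 (-3.36), Id3 (-1.25), Ifit1 (-3.17), Mxd1 (-1.87), Ptafr (-2.01), Rsad2 (-3.23), Snhg5 (-1.51) and Tlr2 (-1.04). Cxcl10 (-3.73) rose without LPS and fell with it. Il23a (4.9) did not pass without LPS and rose with it, and it passed the filter only through the group with both agents.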

How the results depend on the processing

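Of the 200 named genes, 186 kept their direction and their side of the threshold under every alternative that tested them, except the 2-fold minimum. Not all were tested under each. With only transcripts of at least 1000 bases, 180 were in the fit, and with the filter at 5 FPKM 197 were. Under none of the 18 alternatives was a gene called in the opposite direction. Requiring a change of at least 2-fold left 577 genes higher and 466 lower in place of 1843 and 1714, and 785 in place of 2978 with LPS present. With 1 control or tunicamycin library left out, 1422 to 1610 genes were higher and 1381 to 1513 lower. Interactions numbered 228 to 352 with 1 library of the 12 left out, the lowest without tunicamycin replicate 3. With a replicate block 1846 were higher and 1706 lower; replicates 1 and 3 of the controls correlated best with their own number among the tunicamycin libraries and replicate 2 did not, which is a hint from the data and not the design. The transcript length correction gave 1600 higher and 1808 lower, 46.9% of calls higher in place of 51.8%. Signs turned for Dpagt1, which did not pass, whose value was -0.0981 to 0.0567 with 1 library left out and above 0 without control replicate 1 or tunicamycin replicate 1 (0.017), and with quantile normalization for Hsp90ab1 (0.15), also not passed, and Ftl1 (0). Quantile normalization raises abundant genes: 18 of 38 proteasome and 14 of 48 lysosome genes were then higher, in place of 5 and 5. The fit of only the libraries of a comparison gives no interaction. Unknown read depth limits what can be said of genes near 1 FPKM.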

Other observations

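The gene lists that the account above does not describe were mixed, beside 17.9% higher and 16.6% lower over all genes. Among 24 targets of NRF2, the factor of the oxidative stress response, 7 rose and 7 fell, or 4 fell without tunicamycin replicate 3. Among 38 proteasome subunits 5 rose and 6 fell, or 2 fell without control replicate 2. Lysosomal hydrolases and proton pump subunits had 5 higher and 8 lower of 48, with 2 or 3 higher on leaving out any 1 library. Of 26 genes of MHC presentation 6 rose and 3 fell, or 2 rose without control replicate 1, control replicate 3, tunicamycin replicate 2 or tunicamycin replicate 3. ER calcium genes had 6 higher and 2 lower of 19, or 3 higher without control replicate 3, tunicamycin replicate 2 or tunicamycin replicate 3, and 1 lower without control replicate 1, control replicate 2, tunicamycin replicate 1 or tunicamycin replicate 3.

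Cytokine receptor signalling with the SOCS inhibitors had 10 higher and 4 lower of 35. C-type lectins and related receptors had 5 higher and 6 lower of 29. Of 11 genes of the KLF family 6 rose and 3 fell. Numbered zinc finger genes, most of them transcription factors of unknown role, had 33 higher and 12 lower of 207. Without tunicamycin replicate 2 these were 20 and 6, and 6 were lower without control replicate 1 or tunicamycin replicate 1.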
